A study of Mus musculus with 12 samples.

Results

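The genes described here are 8 genes with which splenic B cells adhere to other cells and to matrix, chosen by name from the 46078 genes counted in 12 RNA sequencing libraries. They are the integrin alpha subunits Itgal, Itga4, Itgam and Itgax, the integrin beta subunits Itgb2, Itgb1 and Itgb7, and the integrin ligand Icam1. Each of the 8 was in the count file, and each passed the filter on low counts in every comparison. The libraries came from marginal zone (MZ) and follicular (FO) B cells of C57BL/6 mice aged 8 to 12 weeks, isolated from spleen with a Miltenyi kit for these 2 populations.

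There were 4 groups of 3 libraries. They were MZ B cells of conditional knockout (CKO) mice, MZ B cells of Control mice, FO B cells of CKO mice and FO B cells of Control mice. CKO mice were labelled VAVcre-Zbtb24 with the genotype Zbtb24-/-, and Control mice were labelled VAVcre with the genotype WT, so that the Cre transgene was common to both. The Vav promoter drives Cre in blood-forming cells and their progeny, so the transgene is not particular to B cells. Animal numbers in the labels tie each MZ library to 1 FO library, giving 3 CKO animals (1512, 1514 and 2002) and 3 Control animals (1505, 1507 and 2003) as replicates 1, 2 and 3.

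Integrins are cell surface receptors made of an alpha and a beta chain, and each pairing binds its own set of ligands. On B cells LFA-1, built from Itgal and Itgb2, binds ICAM-1, while the alpha 4 chain from Itga4 pairs with the Itgb1 chain to bind VCAM-1 or with the Itgb7 chain to bind MAdCAM-1. MZ B cells are retained around the white pulp of the spleen by LFA-1 and alpha 4 beta 1 binding to these ligands, whereas FO B cells recirculate through blood, follicles and gut-associated lymphoid tissue.

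Of the 8 genes, Itgb7 and Icam1 had the largest lower and the largest higher MZ level in Control mice among those that passed the test, and Itgam and Itgax lie next to each other on chromosome 7 and were the lowest of the 8. Their promoters are therefore shown, each from 250 bases before to 50 bases after the RefSeq start of the gene (build GRCm38.p6), 5′ to 3′ on the gene's own strand. Capitals mark matches on either strand to 3 motifs: the KLF core CACCC, printed as GGGTG where it lies on the other strand, the PU.1 core GAGGAA, printed as TTCCTC where it lies on the other strand, and the kappa-B palindrome GGAANTTCC.
Itgb7 (chr15:102231886-102232185, minus strand): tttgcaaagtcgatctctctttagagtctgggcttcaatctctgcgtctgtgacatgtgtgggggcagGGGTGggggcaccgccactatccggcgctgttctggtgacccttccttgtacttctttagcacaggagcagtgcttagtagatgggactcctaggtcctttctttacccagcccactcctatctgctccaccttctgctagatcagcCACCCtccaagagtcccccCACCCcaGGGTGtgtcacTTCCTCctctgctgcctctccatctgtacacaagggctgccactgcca
Icam1 (chr9:21015690-21015989, plus strand): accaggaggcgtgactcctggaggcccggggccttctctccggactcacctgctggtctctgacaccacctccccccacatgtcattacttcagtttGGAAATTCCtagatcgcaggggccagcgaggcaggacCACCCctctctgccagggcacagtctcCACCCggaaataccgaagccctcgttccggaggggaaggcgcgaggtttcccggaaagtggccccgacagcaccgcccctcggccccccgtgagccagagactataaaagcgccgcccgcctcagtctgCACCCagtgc
Itgam (chr7:128062390-128062689, plus strand): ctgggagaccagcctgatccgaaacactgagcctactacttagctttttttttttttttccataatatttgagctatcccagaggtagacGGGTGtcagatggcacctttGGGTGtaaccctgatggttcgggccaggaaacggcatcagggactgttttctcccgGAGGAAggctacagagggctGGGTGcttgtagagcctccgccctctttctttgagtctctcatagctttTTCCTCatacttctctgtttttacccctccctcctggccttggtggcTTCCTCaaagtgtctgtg
Itgax (chr7:128129300-128129599, plus strand): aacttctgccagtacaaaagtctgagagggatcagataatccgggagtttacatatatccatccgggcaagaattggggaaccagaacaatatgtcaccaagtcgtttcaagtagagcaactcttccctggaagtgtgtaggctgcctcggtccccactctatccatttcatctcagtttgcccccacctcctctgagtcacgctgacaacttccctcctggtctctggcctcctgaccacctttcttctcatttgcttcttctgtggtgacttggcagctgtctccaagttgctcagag

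RefSeq promoters were at hand for 6 of the 8 genes, with none used for Itgal and Itgb2. The KLF core was found in 5 of these 6 promoters, against 57.5% of 32851 mouse promoters of the same length. Itgb7 and Itga4 held 4 matches each, Icam1 and Itgam held 3 each, Itgb1 held 2 and Itgax held 0. The PU.1 core was found in 3 of the 6, against 28.3% of all promoters, with 3 matches in Itgam and 1 each in Itgb7 and Itgb1. The kappa-B palindrome was found in 1 of the 6, that of Icam1, against 0.928% of all promoters. The motifs do not overlap each other in the promoters shown. These matches describe the letters in this window and say nothing of binding.

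Depth was similar in all libraries, at 36340116 to 44629250 counts assigned to genes, and the lowest count of any of the 8 genes in any library was 591. B cell markers summed to 8382 to 11275 CPM per library, where CPM is the read count scaled to the size of the library. Summed MZ B cell markers, led by Cr2 and Dtx1, reached 6895 to 8675 CPM in MZ libraries and 2253 to 2862 CPM in FO libraries. Summed FO B cell markers, led by Ighd, reached 2098 to 2607 CPM in MZ libraries and 4663 to 5381 CPM in FO libraries. Not every marker followed the sums. Cxcr5 of the FO list averaged 685 CPM in MZ CKO and 618 CPM in MZ Control libraries, against 506 and 474 CPM in FO CKO and FO Control libraries. Notch2 of the MZ list averaged 884 and 844 CPM in MZ CKO and MZ Control libraries, against 847 and 844 CPM in FO CKO and FO Control libraries. Zbtb24, the targeted gene, read 41.8 to 46.4 CPM in MZ CKO against 49.1 to 54.4 CPM in MZ Control libraries, and 46.9 to 50.04 CPM in FO CKO against 60.8 to 62.5 CPM in FO Control libraries. Its reads were thus lower in all CKO libraries of either cell type but far from 0. Cdca7, a gene known to be activated by ZBTB24, read 1.88 to 5.37 CPM in MZ CKO against 33.1 to 42.4 CPM in MZ Control libraries, and 0.55 to 2.64 CPM in FO CKO against 31.7 to 33.8 CPM in FO Control libraries.

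**Figure D1:**
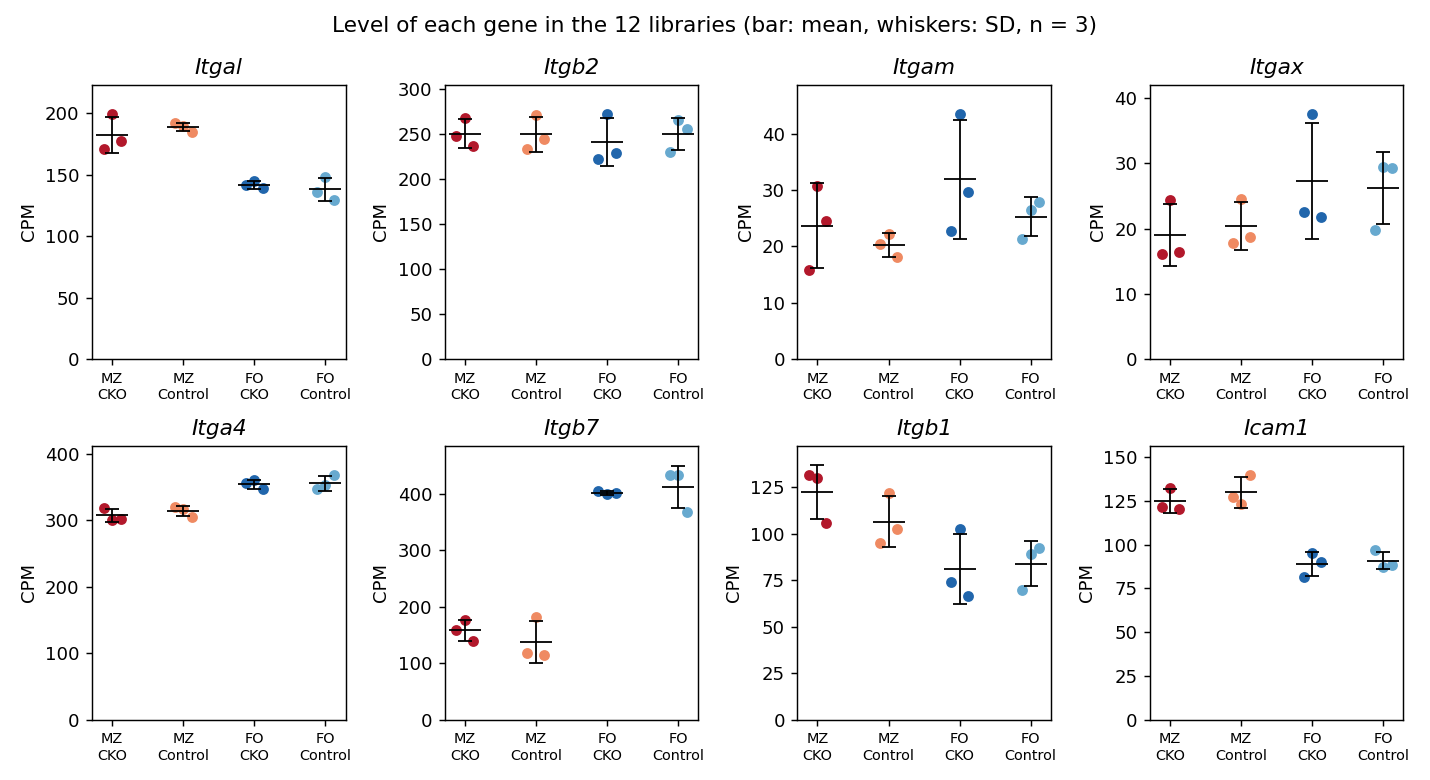
Level (CPM, linear axis from 0) of each of the 8 genes in each library, by group (MZ CKO, MZ Control, FO CKO, FO Control; points are libraries, bars mean and SD, n = 3). Itgb7 lies between 115 and 181 CPM in the MZ libraries and between 368 and 433 CPM in the FO libraries, while within a cell type the CKO and Control points of all 8 genes overlap.

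The levels of different genes were set against each other as CPM per kilobase of exon. Itgb7, the beta 7 chain, was highest in FO cells, at 145 ± 1.16 CPM per kilobase in FO CKO and 149 ± 13.5 CPM per kilobase in FO Control libraries (SD, n = 3 each). Itgb2, the beta 2 chain, followed in FO cells and led in MZ cells, at 82.2 ± 5.22 CPM per kilobase in MZ CKO, 81.9 ± 6.37 in MZ Control, 79.1 ± 8.79 in FO CKO and 82.03 ± 5.99 in FO Control libraries. Itgb7 was second in MZ cells, at 57.1 ± 6.68 CPM per kilobase in MZ CKO and 49.9 ± 13.4 CPM per kilobase in MZ Control libraries. The order of these 2 beta chains was thus opposite in the 2 cell types.

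Below them, Itga4, Itgal, Icam1 and Itgb1 lay close together, at group means of 19.8 to 29.96 CPM per kilobase. Over the 12 libraries they averaged 23.8, 24.8, 24.9 and 24.1 CPM per kilobase. The order of these 4 also moved with the length used, since with the longest transcript in place of all exons their means were 34.05, 31.2, 42.9 and 25.8 CPM per kilobase. Itgam and Itgax were lowest in every group, at group means of 3.95 to 6.35 CPM per kilobase, and did not differ from each other beyond their spread. Of the 5024 exon bases of Itgam, 3450 are shared with Gm49368 on the same strand. How reads there were counted is not stated, so the Itgam level per kilobase carries this limit.

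The MZ and FO cells of Control mice differed in both directions. Of the 8 genes, 2 were higher in MZ cells (Itgal and Icam1) and 2 were lower (Itga4 and Itgb7) at an adjusted p under 0.05. That is 4 of 8, against 27.9% of the 17830 genes tested, of which 14.9% were higher and 13% lower. The libraries of the 2 cell types did not overlap for 5 of the 8 genes, against 42.3% of all genes, and the median log2 fold change was -0.09 over the 8 and 0.01 over all genes. The fit that paired MZ and FO libraries of the same animal called 7 of the 8, against 43.8% of all genes.

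In CKO mice the same comparison called 2 genes higher in MZ cells (Itgal and Icam1) and 1 lower (Itgb7). That is 3 of 8, against 18.3% of the 17712 genes tested, of which 10.5% were higher and 7.78% lower. The same 5 genes did not overlap, against 36.4% of all genes, and the median log2 fold change was -0.07 over the 8 and -0.01 over all genes. The paired fit again called 7 of the 8, against 35.8% of all genes. The MZ and FO comparisons of CKO and of Control mice share no library. Markers of other lymphocytes moved with the cell type too: summed T cell markers, led by Lck and Cd5, were 198 to 309 CPM in MZ CKO and 229.97 to 336 CPM in MZ Control libraries, against 281 to 401 CPM in FO CKO and 399.7 to 457 CPM in FO Control libraries. Summed NK cell markers, led by Prf1 and Gzma, were 76.7 to 103 CPM in MZ CKO and 70.7 to 114 CPM in MZ Control libraries, against 104 to 144 CPM in FO CKO and 86.0 to 131 CPM in FO Control libraries. Prf1 itself had the higher mean in MZ cells, at 29.9 ± 1.01 CPM in MZ CKO and 33.2 ± 5.39 CPM in MZ Control libraries, against 21.4 ± 2.78 CPM in FO CKO and 21.1 ± 5.52 CPM in FO Control libraries. All 10 T cell and all 8 NK cell genes had counts in every group, and their part in the levels of the 8 genes was not tested.

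Itgb7 (ENSMUSG00000001281, chr15:102215995-102231944) encodes the beta chain of the MAdCAM-1 receptor alpha 4 beta 7, which directs lymphocytes to gut-associated tissue. Its level was 159, 176 and 139 CPM in MZ CKO libraries and 118, 181 and 115 CPM in MZ Control libraries, against 405, 399 and 401 CPM in FO CKO libraries and 433, 433 and 368 CPM in FO Control libraries. All 6 MZ libraries were below all 6 FO libraries, and animal 1507 had the highest MZ level, above the other MZ Control libraries and close to MZ CKO animal 1514. The log2 fold change of MZ over FO was -1.57 in Control mice (SE 0.20, edgeR quasi-likelihood test, adjusted p = 0.003427) and -1.34 in CKO mice (SE 0.09, edgeR, adjusted p = 2.499e-05). The ratio of MZ to FO within an animal was 0.347 to 0.441 in CKO and 0.273 to 0.418 in Control animals.

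Itga4 (ENSMUSG00000027009, chr2:79255426-79333123) encodes the alpha 4 chain shared by the VCAM-1 and MAdCAM-1 receptors. It read 319, 301 and 302 CPM in MZ CKO and 320.1, 316 and 304 CPM in MZ Control libraries, against 355, 360.1 and 347 CPM in FO CKO and 346, 353 and 368 CPM in FO Control libraries. All MZ values were below all FO values, by a small margin, and the ratio of MZ to FO within an animal was 0.828 to 0.925. The log2 fold change was -0.18 in Control mice (SE 0.06, edgeR, adjusted p = 0.04939) and -0.20 in CKO mice (SE 0.07, edgeR, adjusted p = 0.07229). The Control call is at the edge of the threshold: leaving out any of the 6 libraries gave an adjusted p of 0.07631 to 0.1807, while the fit paired by animal gave 0.0152 in Control and 0.02878 in CKO mice.

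Itgb1 (ENSMUSG00000025809, chr8:128685654-128733200) encodes the beta 1 chain, the other partner of alpha 4. It read 131, 129.7 and 106 CPM in MZ CKO and 95.2, 122 and 103 CPM in MZ Control libraries, against 73.8, 102 and 66.6 CPM in FO CKO and 69.9, 88.9 and 92.5 CPM in FO Control libraries. The MZ level was the higher in all 6 animals, with ratios of 1.27 to 1.78 in CKO and 1.11 to 1.37 in Control animals, and the library groups did not overlap within a genotype. The unpaired edgeR test did not call it, with log2 0.60 in CKO mice (SE 0.18, edgeR, adjusted p = 0.07482) and 0.35 in Control mice (SE 0.13, edgeR, adjusted p = 0.07643). The fit paired by animal did, with adjusted p = 2.448e-06 in CKO and 6.459e-07 in Control mice. Without FO CKO animal 1514, whose Itgb1 level was the highest of the FO libraries, the unpaired CKO test passed at an adjusted p of 0.001801, and without animals 1507 and 1514 at 0.004126. Unpaired DESeq2 called it in both genotypes (adjusted p = 0.00227 in CKO and 0.02524 in Control mice), as did edgeR without robust dispersion in CKO mice (0.04316) and with no filter on low counts in Control mice (8.004e-05).

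The beta partners of alpha 4 thus stood in different proportions in the 2 cell types. Itgb7 per kilobase was 1.91 ± 0.111 times Itgb1 in MZ CKO and 1.89 ± 0.275 times in MZ Control libraries, against 7.57 ± 1.62 times in FO CKO and 7.39 ± 1.64 times in FO Control libraries (SD, n = 3 each). The lowest FO ratio, 5.74, was above the highest MZ ratio, 2.19. Itga4 per kilobase was 0.74 ± 0.0837 times Itgb1 in MZ CKO and 0.869 ± 0.111 times in MZ Control libraries, against 1.32 ± 0.257 times in FO CKO and 1.25 ± 0.165 times in FO Control libraries. These are ratios of RNA and not of receptor.

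Itgal (ENSMUSG00000030830, chr7:127296260-127335138) encodes the alpha chain of LFA-1, whose ligand is ICAM-1. It read 171, 199 and 178 CPM in MZ CKO and 192, 189 and 185 CPM in MZ Control libraries, against 142, 145 and 139 CPM in FO CKO and 136, 149 and 129 CPM in FO Control libraries. Each MZ library lay above each FO library. The log2 fold change was 0.37 in CKO mice (SE 0.07, edgeR, adjusted p = 0.007763) and 0.45 in Control mice (SE 0.07, edgeR, adjusted p = 0.000475), and the MZ level was 1.21 to 1.43 times the FO level within an animal.

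Itgb2 (ENSMUSG00000000290, chr10:77530252-77565708), the partner chain of Itgal, Itgam and Itgax, read 248, 268 and 237 CPM in MZ CKO and 234, 272 and 245 CPM in MZ Control libraries, against 223, 272 and 229 CPM in FO CKO and 230.03, 265 and 256 CPM in FO Control libraries. The 4 groups overlapped, and the log2 fold change of MZ over FO was 0.06 in CKO (SE 0.09, edgeR, adjusted p = 0.7104) and 0.00 in Control mice (SE 0.08, edgeR, adjusted p = 0.9919). Itgal per kilobase was 0.338 ± 0.0158 times Itgb2 in MZ CKO and 0.352 ± 0.0288 times in MZ Control libraries, against 0.275 ± 0.0242 times in FO CKO and 0.257 ± 0.0203 times in FO Control libraries. The alpha chain of LFA-1 was thus higher in MZ cells while its beta chain did not pass the test.

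Icam1 (ENSMUSG00000037405, chr9:21015985-21028817), the ligand of LFA-1 and itself carried by B cells, read 121, 133 and 121 CPM in MZ CKO and 127, 123 and 139.8 CPM in MZ Control libraries, against 81.5, 95.2 and 90.2 CPM in FO CKO and 96.8, 87.5 and 88.5 CPM in FO Control libraries. The lowest MZ library was above the highest FO library. The log2 fold change was 0.50 in CKO (SE 0.08, edgeR, adjusted p = 0.002133) and 0.51 in Control mice (SE 0.07, edgeR, adjusted p = 0.0002933). The ratio of MZ to FO was 1.34 to 1.49 in CKO and 1.31 to 1.58 in Control animals.

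**Figure D2:**
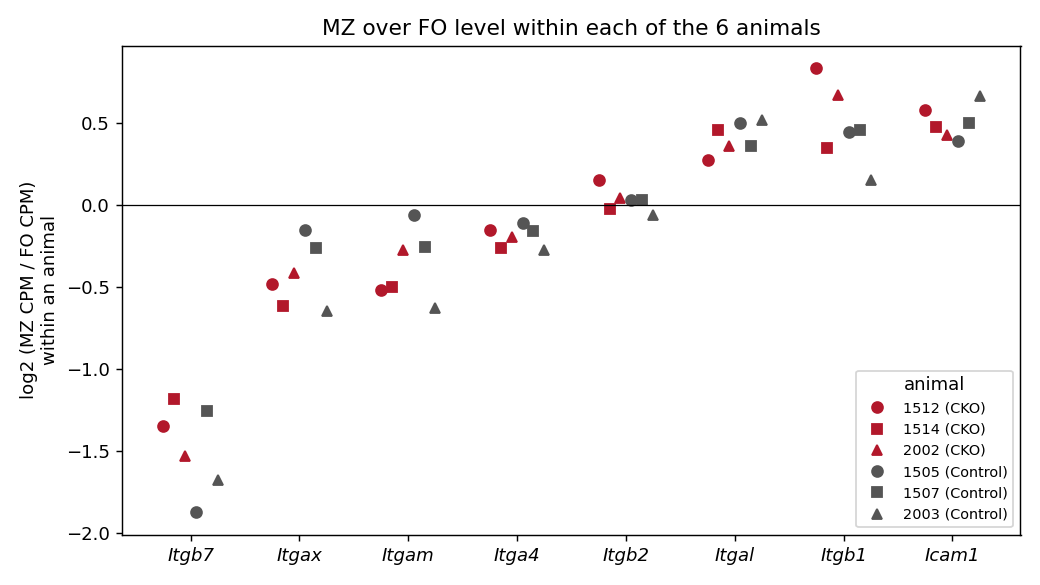
log2 ratio of the MZ to the FO level (CPM) of each of the 8 genes within each of the 6 animals (points; red for CKO and grey for Control animals; the line at 0 marks equal levels). In every animal the point was above the line for Itgal, Itgb1 and Icam1 and below it for Itga4, Itgb7, Itgam and Itgax, while Itgb2 lay on either side.

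Itgam (ENSMUSG00000030786) and Itgax (ENSMUSG00000030789) encode the alpha chains CD11b and CD11c, which pair with the Itgb2 chain and are most abundant on myeloid and dendritic cells. Itgam read 15.8, 30.7 and 24.6 CPM in MZ CKO and 20.4, 22.2 and 18.02 CPM in MZ Control libraries, against 22.7, 43.4 and 29.7 CPM in FO CKO and 21.3, 26.5 and 27.9 CPM in FO Control libraries. Itgax read 16.1, 24.4 and 16.3 CPM in MZ CKO and 17.8, 24.6 and 18.7 CPM in MZ Control libraries, against 22.5, 37.5 and 21.7 CPM in FO CKO and 19.8, 29.5 and 29.2 CPM in FO Control libraries. Animal 1514 had the highest Itgam level of the CKO animals in both cell types, and for both genes the MZ and FO libraries overlapped within each genotype.

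Neither gene passed the unpaired edgeR test. Itgam had a log2 fold change of MZ over FO of -0.42 in CKO (SE 0.35, edgeR, adjusted p = 0.4935) and -0.32 in Control mice (SE 0.12, edgeR, adjusted p = 0.06051), and Itgax had -0.52 in CKO (SE 0.29, edgeR, adjusted p = 0.295) and -0.36 in Control mice (SE 0.19, edgeR, adjusted p = 0.2163). The fit paired by animal called both lower in MZ cells, at an adjusted p of 0.0001657 in CKO and 0.0009885 in Control mice for Itgam, and 3.438e-05 and 0.0001135 for Itgax. The MZ level was the lower in all 6 animals for both genes, at ratios of 0.698 to 0.828 in CKO and 0.646 to 0.956 in Control animals for Itgam, and 0.652 to 0.751 in CKO and 0.64 to 0.899 in Control animals for Itgax. Without FO Control animal 1505 the unpaired Control test passed for Itgam at an adjusted p of 0.01515 and for Itgax at 0.01791, and without MZ Control animal 1507 it passed for Itgam at 0.03248. In Control mice unpaired DESeq2 also called Itgam (adjusted p = 0.04315), and edgeR with no filter on low counts called both genes (adjusted p = 0.01536 for Itgam and 0.004784 for Itgax), while in CKO mice Itgax passed without animals 1507 and 1514 (adjusted p = 0.03666).

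Within each animal, summed markers of myeloid cells were lower in MZ than in FO cells, though not every single marker was. Summed macrophage and monocyte markers, led by Lyz2 and Csf1r, were 236, 369 and 262 CPM in MZ CKO and 192, 370.3 and 255 CPM in MZ Control libraries, against 318, 569 and 406 CPM in FO CKO and 248, 474 and 493 CPM in FO Control libraries. All 12 genes of that list had counts in every group, and animal 1514 had the highest sum in FO cells. Of the 12, 0 were called higher and 2 lower in MZ CKO cells, and 1 higher and 0 lower in MZ Control cells. These are 16.7% and 8.33%, against 18.3% of all genes in CKO and 27.9% in Control mice. Lyz2 averaged 125 CPM in MZ CKO and 107 CPM in MZ Control libraries, against 218 and 199.6 CPM in FO CKO and FO Control libraries. Cd68 averaged 16.9 and 16.8 CPM in those MZ groups, against 16.3 and 16.1 CPM in FO. Summed neutrophil markers were 82.8 to 267 CPM in MZ CKO and 69.03 to 166 CPM in MZ Control libraries, against 143 to 437 CPM in FO CKO and 105 to 229 CPM in FO Control libraries. Summed dendritic cell markers were 145 to 186 CPM in MZ CKO and 154 to 179.6 CPM in MZ Control libraries, against 187 to 231 CPM in FO CKO and 201 to 236 CPM in FO Control libraries. Of 9 genes of B-1 and CD11c+ B cells, 3 were higher and 1 lower in MZ CKO than in FO CKO cells, and 3 were higher and 3 lower in MZ Control than in FO Control cells. That is 44.4% in CKO and 66.7% in Control mice, against 18.3% and 27.9% of all genes. The sums of the 9 genes were 617 to 731 CPM in MZ CKO and 622 to 653 CPM in MZ Control libraries, against 233 to 265 CPM in FO CKO and 192 to 242 CPM in FO Control libraries, a difference that lay mostly in Fcrl5 and Cd36. Tbx21 of the same 9 genes, which encodes T-bet, averaged 8.23 ± 3.14 CPM in MZ CKO and 7.72 ± 1.17 CPM in MZ Control libraries, against 13.97 ± 4.59 CPM in FO CKO and 14.03 ± 1.45 CPM in FO Control libraries. Zeb2, also of the 9, was not lower in MZ cells. It averaged 74.4 ± 0.783 CPM in MZ CKO and 68.4 ± 2.85 CPM in MZ Control libraries, against 74.4 ± 4.69 CPM in FO CKO and 60.1 ± 6.34 CPM in FO Control libraries. The part of any of these cells in the Itgam and Itgax levels was not tested, and fewer cells of a type and less RNA per cell cannot be told apart in such bulk samples.

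**Figure D3:**
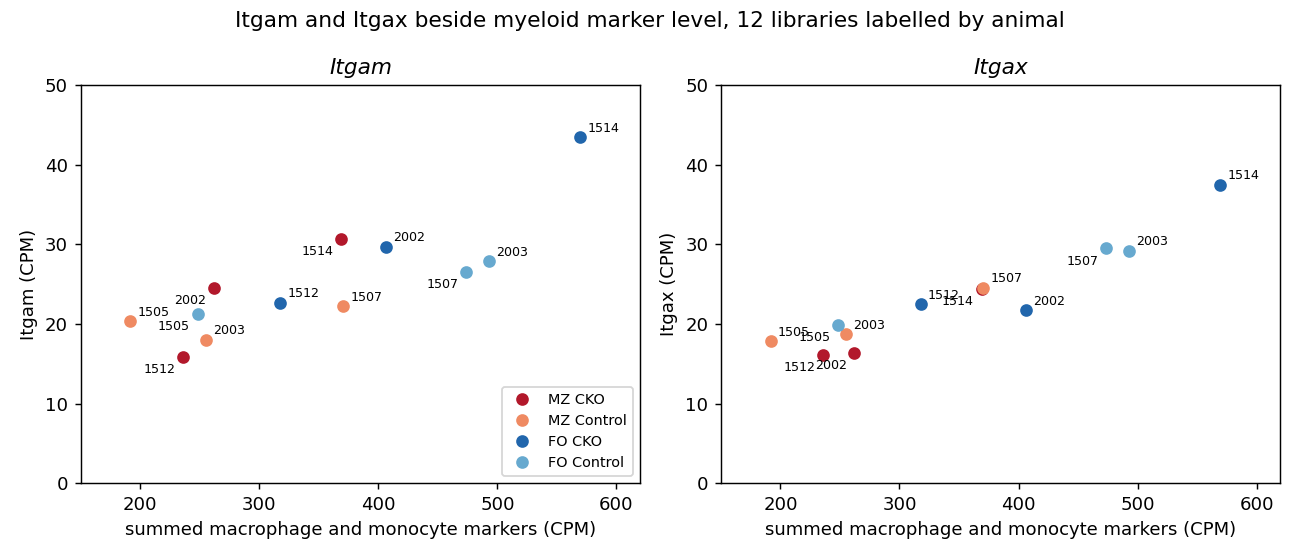
Itgam (left) and Itgax (right) level (CPM) against the summed CPM of 12 macrophage and monocyte markers, 12 libraries labelled by animal number and coloured by group. The FO library of animal 1514 is highest on both axes in both panels, at 569 CPM of markers, 43.4 CPM of Itgam and 37.5 CPM of Itgax.

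Both genes lie on chromosome 7 (GRCm38), Itgam at chr7:128062640-128118491 and Itgax at chr7:128129547-128150657, with Itgad, the alpha D chain, next to them at chr7:128154376-128223816. Itgad averaged 11.3 ± 4.98 CPM in MZ CKO and 12.4 ± 7.41 CPM in MZ Control libraries, against 12.2 ± 6.16 CPM in FO CKO and 12.9 ± 7.60 CPM in FO Control libraries, and was called in neither comparison (edgeR, adjusted p = 0.9262 in CKO and 0.9666 in Control mice). Itgal lies on the same chromosome. All positions of genes are on GRCm38. In Gencode M21 exons of Itga4 share 1124 bases with Cerkl on the opposite strand and exons of Itgam share 3450 bases with Gm49368 on the same strand. Exons of Icam1 share 511 bases with Gm47079 on the opposite strand. Whether counting was by strand is not stated, so reads of Itga4 and Cerkl, and of Icam1 and Gm47079, may not be told apart there. For Itgam and Gm49368, on the same strand, strand cannot separate the reads. How reads that lie in both were counted is not stated.

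Between CKO and Control mice none of the 8 genes passed the test in either cell type. In FO cells 0 of 8 were called by edgeR, against 0.09% of the 17777 genes tested, also with replicates paired by number (0.141% of all genes), and 0 of 8 had an unadjusted p under 0.05 or were called by DESeq2. Their log2 fold changes ran between -0.05 and 0.34 (edgeR, adjusted p = 0.9995 for each). The largest was that of Itgam, 0.34 (SE 0.27), which was 0.051 without FO CKO animal 1514. The 6 libraries overlapped for all 8 genes, where 9.32% of all genes did not overlap. For Itgb7, FO CKO libraries averaged 402 ± 3.22 CPM and FO Control libraries 411 ± 37.3 CPM (SD, n = 3 each), a log2 fold change of -0.03 (SE 0.07).

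In MZ cells 0 of 8 were called by edgeR, against 0.0793% of the 17658 genes tested, and again 0 of 8 had an unadjusted p under 0.05 or were called by DESeq2. Their log2 fold changes ran between -0.11 and 0.23 (edgeR, adjusted p = 1 for each). Itgam had 0.23 (SE 0.23), Itgb1 had 0.20 (SE 0.11) and Itgb7 had 0.19 (SE 0.20). With a library left out, the Itgam value ran between 0.002 and 0.451. MZ CKO libraries averaged 122 ± 14.4 CPM of Itgb1 against 106 ± 13.6 CPM in MZ Control libraries, and 158 ± 18.5 CPM of Itgb7 against 138 ± 37.2 CPM. The libraries of the 2 genotypes overlapped for all 8 genes, where 7.63% of all genes did not overlap.

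The difference between the genotype effects in MZ and in FO cells was tested directly in a fit of all 12 libraries. edgeR called 0 of the 8 genes and 0 of the 18546 genes tested, of which 238 had an unadjusted p under 0.05, and the 8 genes ran between -0.16 and 0.25 (log2, adjusted p = 1 for each). With libraries paired by animal 0.0216% of all genes and again 0 of the 8 were called, and DESeq2 called 0 of the 8 and 0 of all genes. With 3 libraries against 3, the smallest p that an exact permutation test can give is 0.1. Itgal, Itga4, Itgb1, Itgb7 and Icam1 reached it in both comparisons of MZ against FO cells. None of the 8 genes reached it between genotypes in either cell type.

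**Figure D4:**
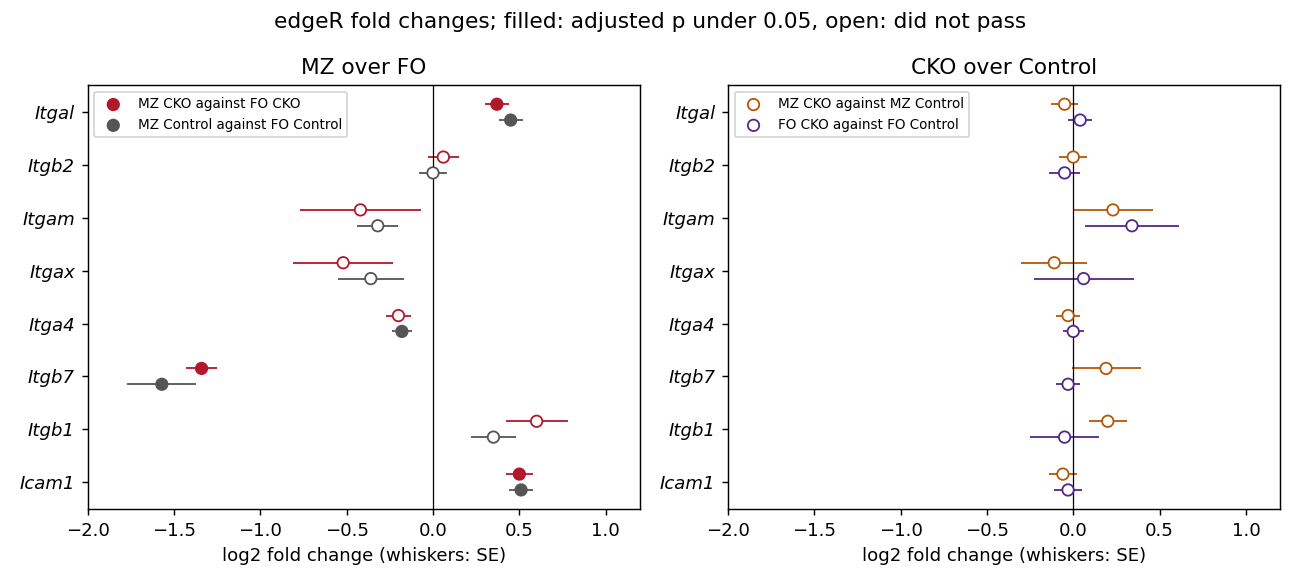
log2 fold changes of the 8 genes (whiskers SE, edgeR) for MZ over FO in CKO and in Control mice, and for CKO over Control in MZ and in FO cells; filled points passed an adjusted p of 0.05 over all genes. Itgb7 lies at -1.34 and -1.57 in the MZ over FO comparisons, while no point of the genotype comparisons is filled.

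Other adhesion genes were described from 4 lists. Of 18 other integrin subunits tested, 1 was higher and 2 were lower in MZ CKO than in FO CKO cells, and 2 were higher and 3 were lower in MZ Control than in FO Control cells, with medians of -0.34 in CKO and -0.44 in Control mice (log2). These shares, 16.7% in CKO and 27.8% in Control mice, are near those of all genes, 18.3% in CKO and 27.9% in Control mice. Itga6, the laminin receptor chain alpha 6, averaged 18.1 ± 2.08 CPM in MZ CKO and 19.98 ± 2.61 CPM in MZ Control libraries, against 43.5 ± 1.76 CPM in FO CKO and 51.5 ± 3.78 CPM in FO Control libraries. Itgb3, the beta chain of the vitronectin receptor, averaged 18.8 ± 3.76 CPM in MZ CKO and 20.4 ± 2.96 CPM in MZ Control libraries, against 35.99 ± 5.97 CPM in FO CKO and 42.6 ± 3.73 CPM in FO Control libraries. Itga6 (log2 -1.26 and -1.36, edgeR, adjusted p = 5.875e-05 in CKO and 1.947e-06 in Control mice) and Itgb3 (-0.93 and -1.06, adjusted p = 0.009446 and 3.211e-05) were lower in MZ cells of both genotypes. Itgae, the other alpha partner of the beta 7 chain, was lower in MZ Control cells (log2 -0.60, edgeR, adjusted p = 0.01668) and had -0.32 in CKO mice (adjusted p = 0.3151). Its group means were low, from 6.52 CPM in MZ CKO to 11.2 CPM in FO Control libraries. Summed T cell and dendritic cell markers, given above, also averaged less in MZ cells, and the part of such cells in the Itgae level was not tested.

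Of 16 integrin ligands and selectins tested, 0 were higher and 5 lower in MZ CKO cells, and 1 higher and 6 lower in MZ Control cells, than in FO cells. That is 31.2% in CKO and 43.8% in Control mice, against 18.3% and 27.9% of all genes. Selplg, the selectin ligand PSGL-1, and Icam2, a second ligand of LFA-1, were lower in MZ cells. Icam2 had log2 -0.84 in CKO and -0.80 in Control mice, opposite in direction to Icam1 (edgeR, adjusted p = 8.816e-05 and 5.825e-05). Sele, the E-selectin, was lower in MZ cells as well, at a low level of 1.06 ± 0.349 CPM in MZ CKO and 0.881 ± 0.468 CPM in MZ Control libraries, against 4.95 ± 0.226 CPM in FO CKO and 5.16 ± 0.94 CPM in FO Control libraries.

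Genes that regulate integrin activation from within the cell, activators and inhibitors alike, went in both directions. Of 25 tested, 4 were higher and 4 lower in MZ CKO cells, and 4 were higher and 7 lower in MZ Control cells, than in FO cells. That is 32% in CKO and 44% in Control mice, against 18.3% and 27.9% of all genes. The median log2 fold changes were 0.07 in CKO and 0.01 in Control mice. Rasgrp3, an activator of Ras and Rap1, had log2 -1.11 in CKO and -1.34 in Control mice, and Rap1b, a small GTPase that activates integrins, had -0.78 in CKO and -0.73 in Control mice (edgeR, adjusted p = 0.003878 and 1.721e-07 for Rasgrp3, 0.00033 and 4.87e-05 for Rap1b). Flna, the filamin A that binds beta chain tails, averaged 1072 ± 39.9 CPM in MZ CKO and 1008 ± 160.1 CPM in MZ Control libraries, against 1786 ± 50.4 CPM in FO CKO and 1865 ± 9.6 CPM in FO Control libraries. Cib1, a calcium and integrin binding protein, was higher in MZ cells, with log2 0.56 in CKO and 0.72 in Control mice (adjusted p = 0.001624 and 1.447e-05).

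Of the genes that signal from bound integrins, 7 of 17 were higher and 3 lower in MZ CKO cells, and 6 of 18 were higher and 4 lower in MZ Control cells. That is 58.8% in CKO and 55.6% in Control mice, against 18.3% and 27.9% of all genes. Nedd9, a docking protein downstream of integrins, averaged 790.5 ± 92.3 CPM in MZ CKO and 790.3 ± 59.02 CPM in MZ Control libraries, against 495 ± 19.8 CPM in FO CKO and 497 ± 46.5 CPM in FO Control libraries. Lyn, a Src family kinase, had log2 0.45 in CKO and 0.42 in Control mice (edgeR, adjusted p = 0.003257 and 0.0006445), and Ptk2b, the kinase PYK2, had -0.43 in CKO and -0.47 in Control mice (adjusted p = 0.005637 and 0.0003592). Tns1, a tensin that links beta chain tails to actin, had 1.03 in CKO and 1.10 in Control mice (adjusted p = 0.04489 and 3.704e-05), at a low level of at most 12.5 CPM on group average. Between CKO and Control mice, 0 genes of these 4 lists were called by unpaired edgeR or by DESeq2 in either cell type. With replicates paired by number, edgeR called 0 of them in FO cells. In MZ cells that fit called 1, a gene of the integrin activation list that was higher in CKO mice. How many of all genes that fit called is given in the closing section. In the unpaired fit, 3, 1, 1 and 1 had an unadjusted p under 0.05 in FO cells and 0, 0, 1 and 1 in MZ cells. Of all genes, 4.03% in FO cells and 2.9% in MZ cells had such a p.

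**Figure D5:**
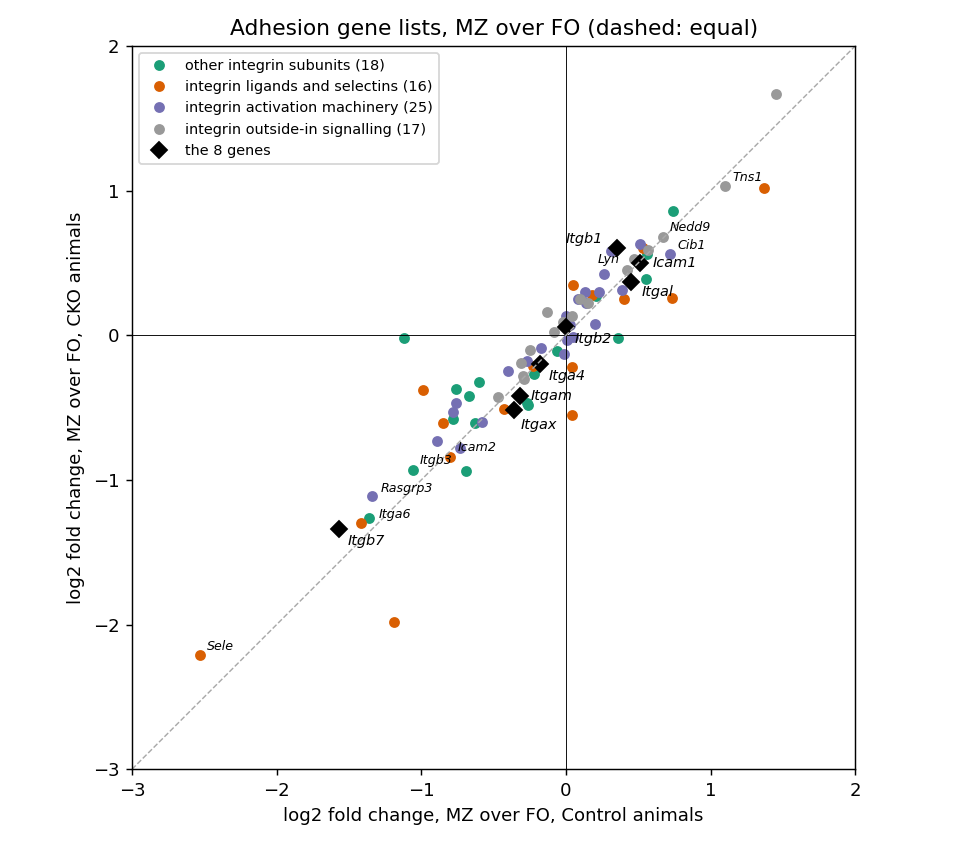
log2 fold change of MZ over FO in CKO mice (vertical) against Control mice (horizontal) for the genes of the 4 adhesion lists (points by list) and the 8 genes (diamonds); the dashed line marks equal change. Itgb7 lies near Itga6 at the lower left, at -1.34 in CKO and -1.57 in Control mice, and the 2 axes share no library.

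The genes whose pattern over the 12 libraries was nearest to a gene that passed were found by the root mean square difference of centred log2 levels among 11539 genes. For Itgb7 they were Emp3 at 0.117 and Fcgrt at 0.123, where Itgb7 itself varied with an SD of 0.793. For Itgal they were Ppp5c at 0.0606 and Ece1 at 0.0656 (SD 0.223), for Icam1 Pmf1 at 0.0591 and Snx20 at 0.065 (SD 0.272), and for Itga4 Agtpbp1 at 0.0298 and Rnf141 at 0.0312 (SD 0.106). The likeness is over the libraries of both cell types together and is a description, with no test.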

How the data were processed

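Per the labels' protocols, RNA was extracted with the Qiagen RNeasy Mini kit and 0.1 ug of it went into Illumina TruSeq RNA libraries. The values are whole read counts per Ensembl gene, not normalized, as the authors deposited them. Per the submitters' processing notes, TopHat, HTSeq and DESeq2 were used on GRCm38, with no versions; annotation release and strand setting are not given in the sources used here. The 5 entries that name no gene held 43.2 to 50.4% of listed reads and were left out. Symbols, positions and exon lengths came from Gencode M21, and promoters from RefSeq.

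The tests used edgeR 4.0.16 under R 4.3.3 (filterByExpr, TMM scaling, robust quasi-likelihood F test, two-sided), with Benjamini-Hochberg adjustment over all genes tested and a threshold of 0.05. Levels are CPM with TMM-scaled library sizes, and SE is the size of the log2 change over the square root of F. Nearest genes used log2(CPM + 1) of genes at a mean of at least 1 CPM. The edgeR steps were tested on simulated data. DESeq2 1.42.0 was an alternative, as were other scalings and filters, fits with animal or replicate blocks, and leaving out libraries.

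Same-numbered animals deviated together in MZ and FO cells (correlations of deviations from group means 0.55 to 0.78), and same-numbered replicates in the FO genotype comparison did so too (0.13 to 0.4). In the MZ genotype comparison replicates 2 and 3 did so (0.43 and 0.41) and replicate 1 did not (-0.11). Replicates are separate animals by their labels. The 8 genes and all lists were chosen with earlier results of these data known. All 8 genes are named; of each list, up to 4 genes that passed with the smallest adjusted p are named, and for each of the 8 that passed, the 2 nearest genes. The result of 1 gene that this rule names is not reported here. Itgad was named after its values were seen, for its position. Depth per library was 36340116 to 44629250 counts, and counting error was not set against the spread between animals gene by gene.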

Additional observations from a re-analysis of the deposited data

How the results depend on the processing

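Itgal, Itgb7 and Icam1 passed in both comparisons of MZ against FO cells under all 13 alternatives. Of 568 alternative fold changes of the 8 genes, 40 turned direction, none of them in a comparison in which the gene passed. Genes called in FO cells between genotypes were 16, against 40 with DESeq2, 140 with no filter and 25 with the replicate block, and 11 to 31 with a library left out (31 without FO CKO replicate 3). In MZ cells they were 14, against 38 with DESeq2, 95 with no filter, 7 without robust dispersion and 57 with the replicate block. Deviations of same-numbered MZ libraries correlated at -0.11, 0.43 and 0.41 for numbers 1, 2 and 3. Leaving out a library gave 5 to 34 genes in MZ cells (7, 5 and 9 without MZ Control replicates 1, 2 and 3, 34 without MZ CKO replicate 3). MZ against FO called 6333 genes with the animal block against 3243 in CKO, and 7805 against 4977 in Control mice; with a library left out, CKO gave 1898 to 2884 (1898 without FO CKO replicate 1) and Control 3585 to 5012. The difference of genotype effects gave 4 genes with the block, against 0. Of the 8 genes, MZ against FO in CKO called 3, against 5 with DESeq2, 7 with the block and 5 without animals 1507 and 1514, a setting chosen after seeing the data; Control called 4, against 7 with the block. Direction turned in these cases: between genotypes in FO cells, Itga4 0.0012 under a stricter filter, and Itgb7 0.011 and Itgax -0.147 without animals 1507 and 1514; in MZ cells, Itgb2 -0.0014 under a stricter filter; and in the difference of effects, Itga4 0.025 without those animals. With a library left out, FO genotype values ran between -0.00099 and 0.101 for Itgal, -0.147 and 0.0081 for Itgb2, -0.023 and 0.023 for Itga4, -0.254 and 0.083 for Itgb1, -0.104 and 0.0099 for Itgb7, -0.243 and 0.207 for Itgax, and -0.083 and 0.033 for Icam1. MZ genotype values ran between -0.046 and 0.069 for Itgb2, -0.326 and 0.054 for Itgax, and -0.1 and 0.0023 for Icam1. MZ over FO Control ran between -0.063 and 0.046 for Itgb2, and the difference of effects between -0.051 and 0.0088 for Itga4, -0.34 and 0.187 for Itgam, -0.387 and 0.15 for Itgax, and -0.079 and 0.034 for Icam1. The cause of these changes was not tested. The lowest count of any of the 8 genes in any library was 591, and each group held 3 animals.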
